A study of Mus musculus with 16 samples.

Results

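Wild-type mouse hearts were compared after ischemia/reperfusion (I/R) injury and after a sham operation. The members were taken by their titles alone: 4 arrays labelled WT_IR and 4 labelled WT_Sham, which are 8 of the 16 arrays of the study, with all 25697 probes of each array. The mice were C57BL/6J, and those used here were littermates without the transgene. The other 8 arrays came from AKIP1-overexpressing mice (TG), 4 after I/R (TG_IR) and 4 after sham (TG_Sham). AKIP1 binds the catalytic subunit of protein kinase A. The TG arrays served here for the estimate of spread, as independent hearts in which to choose responding probes, and for a few comparisons of the same probes. Cardiac tissue was profiled in every group, with 1 Illumina bead array per mouse. Not given in the labels are age, sex, the interval from surgery to sampling, the region of the heart and the promoter of the transgene.

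In I/R, a coronary artery is closed and then reopened, so that heart muscle first lacks oxygen and is then exposed to it again. Injured heart muscle is known for early stress genes, inflammatory signals and invading white blood cells, followed by scar formation, and for reduced transcripts of fuel oxidation and contraction in surviving muscle. A sham operation repeats the surgery without closing the artery. Cardiac tissue was measured in bulk, so that fewer cells of a type and less RNA per cell cannot be told apart.

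The deposited values were linear probe intensities from 161.5 to 25240. Array medians lay between 178.8 and 178.9. Nothing at hand pairs probe IDs with genes, so that probes are given by ID, no pathway or cell type could be followed, and the tissue label could not be checked against heart markers. All values below are log2 of the deposited intensity, and a difference is I/R minus sham on that scale. A background level remains in the intensities, so that folds understate the change, most of all in dim probes. A probe is called when its adjusted p in limma's test, over all 25697 probes, is under 0.05.

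One array went against its label. The array titled WT_IR replicate 2 (the fifth sample of the series) correlated with the 4 sham arrays at r = 0.993 to 0.996 across probes, which is the range of the sham arrays among themselves (0.993 to 0.996). Its r with the other 3 I/R arrays was 0.959 to 0.983. WT_IR replicates 1, 3 and 4 correlated with each other at 0.990 to 0.994 and with the sham arrays at 0.949 to 0.985. Probes are not independent replicates, and these values describe the arrays only. The counts of calls and the named probes are therefore given with all arrays and then without the array labelled WT_IR replicate 2, and other values say which arrays they rest on. Because that array was left out for its values, p-values of the second fit hold only given that choice. Why the array lay with sham was not tested.

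With all arrays, I/R changed 983 of 25697 probes (3.83%), of which 423 were higher (1.65%) and 560 lower (2.18%). Most changes were small. The median called rise was 1.26-fold and the median called fall 1.24-fold. Changes of more than 1.25-fold comprised 213 rises and 262 falls, and those of more than 1.5-fold 100 rises and 62 falls. Only 29 probes rose and 3 fell by more than 2-fold, and 7 rose by more than 4-fold. The ranges of the 4 I/R and 4 sham arrays were apart in 726 of the called probes, and over all probes, called or not, this held for 2095 (8.15%). A large number of probes lay close to the threshold: 2004 had an adjusted p between 0.05 and 0.1, and 5603 had an unadjusted p under 0.05.

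Without WT_IR replicate 2, the number of probes changed by I/R was 4593 (17.9%), made up of 2220 rises (8.64%) and 2373 falls (9.23%). All 983 earlier calls were among them, each in the same direction, and they made up 21.4% of the 4593. The balance of rises and falls turned with size. Among changes of more than 1.25-fold, 986 were rises and 1059 falls. More than 1.5-fold changes comprised 417 rises and 314 falls, more than 2-fold changes 147 rises and 30 falls, and more than 4-fold changes 21 rises and 0 falls. The largest rise was 9.90-fold and the largest fall 3.90-fold. The ranges of the 3 remaining I/R arrays and of sham were apart in 4298 of the 4593 calls, and over all probes in 6309 (24.6%). At the threshold, the 100 probes just inside had a median absolute difference of 0.14 log2 and the 100 just outside 0.11 log2.

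The count with all arrays depended on single arrays. It was 4, 5 and 3 without WT_IR replicates 1, 3 and 4, and 77, 3, 7 and 4 without WT_Sham replicates 1, 2, 3 and 4. The transgenic arrays enter through the estimate of spread. Leaving 1 of them out gave 772, 526, 274 and 692 without TG_IR replicates 1, 2, 3 and 4. Without TG_Sham replicates 1, 2, 3 and 4 the counts were 480, 533, 413 and 468. The second fit was steadier, with 3064 to 4763 calls when a further array was left out. Fitted on the wild-type arrays alone, the counts were 9 with all arrays and 3935 without WT_IR replicate 2.

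**Figure D1:**
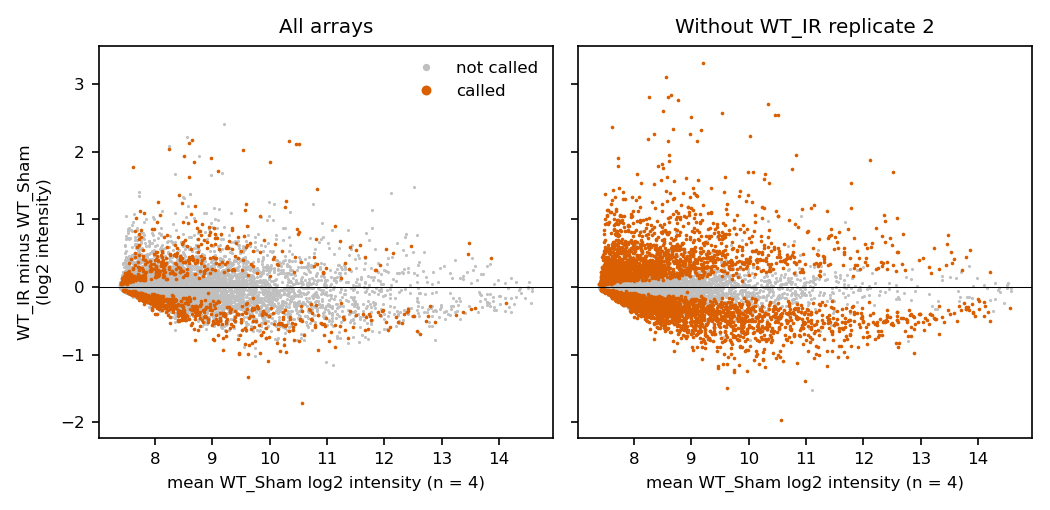
Difference between wild-type I/R and sham hearts (y axis, log2 intensity) against the mean of the 4 sham arrays (x axis, log2 intensity), 1 point per probe, for all arrays (left) and without WT_IR replicate 2 (right). Orange points are called probes (983 and 4593) and grey points are not; the largest differences are rises, up to 3.31 log2 on the right, and near the left edge points reach upward but hardly downward.

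WT_IR replicate 2 widened the spread of the I/R group. When probes were ranked by their mean over all 16 arrays and divided into 10 bins of equal size, the brightest bin had the widest spread. There, the median SD was 0.10 log2 over the 4 sham arrays. In the same probes it was 0.21 log2 over all 4 I/R arrays and 0.14 log2 over the 3 without replicate 2. The median absolute difference there rose from 0.25 to 0.32 log2 on leaving that array out, and the median SE fell from 0.10 to 0.09.

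Calls came almost only from brighter probes. The share called without WT_IR replicate 2 was between 0.506% and 0.856% in each of the 4 dimmest bins. It was 2.49% in bin 5 and 9.65% in bin 6, then 23.4%, 35.4% and 46.5%, and 58.5% in bin 10, the brightest. With all arrays, the share was 0% in bin 1, at most 0.389% in bins 2 to 5, and 14.1% in bin 10. Bins 6 to 10 held 97.0% of the 4593 calls and 97.9% of the 983.

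Both the size of the differences and their error grew with brightness, but the size grew faster. Without replicate 2, the median absolute difference in bin 1 was 0.011 log2 against a median SE of 0.016. In bin 10 it was 0.32 log2 against 0.088, so that the ratio of difference to error went from 0.673 to 3.70. With all arrays this ratio went from 0.682 to 2.44. When bin 10 was split into 4 equal parts and replicate 2 left out, 53.1% of the dimmest part (mean intensity 454.6 to 580.2) and 64.7% of the brightest (1510 to 24072) were called. With all arrays the shares of the 4 parts, from dimmest to brightest, were 13.1%, 15.1%, 13.6% and 14.8%, with no steady climb. In the brightest part without replicate 2, falls outnumbered rises by 256 to 160.

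**Figure D2:**
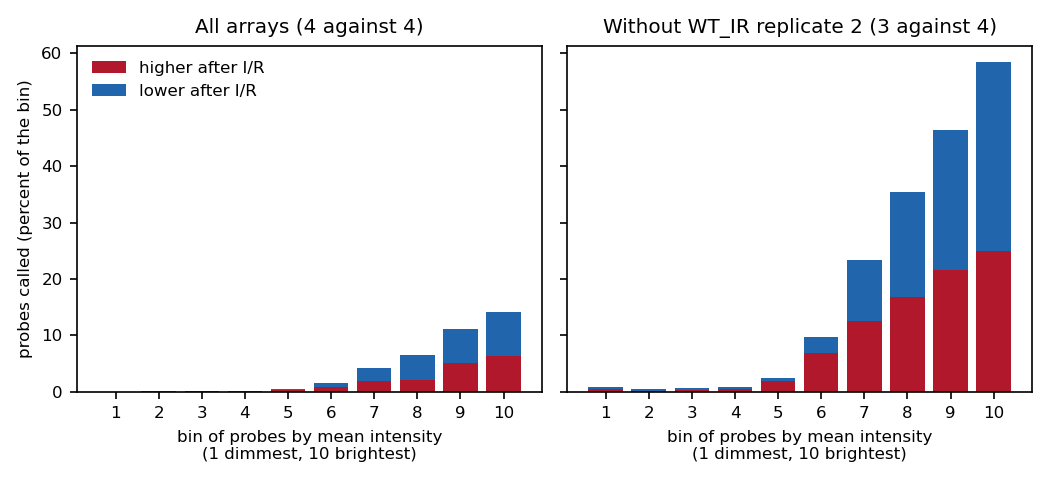
Share of probes called in each bin of mean intensity (x axis, 1 dimmest to 10 brightest; y axis, percent of the 2569 or 2570 probes of the bin), split into higher (red) and lower (blue) after I/R, with all arrays (left) and without WT_IR replicate 2 (right). The share climbs from bin 6 on, to 14.1% and 58.5% in bin 10.

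Direction also depended on the level in sham hearts. Ranked by the mean of the 4 sham arrays, which also enter the difference itself, bins 1 to 5 gave 231 rises and 31 falls without WT_IR replicate 2, whereas bins 6 to 10 gave 1989 rises and 2342 falls. With all arrays, bins 1 to 5 gave 29 rises and 6 falls, and bins 6 to 10 394 and 554. In bin 10, 35.2% of calls were rises without replicate 2 and 34.0% with it. Without replicate 2, every fall of more than 2-fold (30 of 30) came from that bin, against 69 of the 147 rises of that size. A probe near the background level has little room to fall, so that this asymmetry holds for measured intensity and cannot be read as one of transcripts. The 147 probes that rose more than 2-fold had a median sham intensity of 435.6 and a median of 1200 after I/R. For the 30 that fell more than 2-fold these were 1189 and 537.1.

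Array by array, the strongest risers followed the same order. Median intensities of the 21 probes that rose more than 4-fold were 3286, 3266 and 1703 on WT_IR replicates 1, 3 and 4, and 602.0, 399.8, 366.3 and 585.3 on the sham arrays. WT_IR replicate 2 stood at 487.2, between the sham arrays. The 3 other I/R arrays and the sham arrays chose these probes, and the values are a description. All 21 were also called as higher in the TG arrays fitted alone, where 16.4% of all probes were called in either direction. The 30 probes that fell more than 2-fold, chosen by the same arrays, had median intensities of 438.1, 495 and 698.8 on WT_IR replicates 1, 3 and 4. The sham arrays stood at 1151.5 to 1228.5, and replicate 2 at 1031.3, below every sham array. In 16 of the 30 probes replicate 2 lay below all sham arrays, in 13 within their range and in 1 above them.

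Consistency between arrays was examined in probes that the wild-type arrays did not choose. In a fit of the 8 TG arrays alone, 4203 probes were called (16.4%), 2079 higher and 2124 lower after I/R, and 98.1% of them were in bins 6 to 10. For each wild-type array, a response score was the mean over these probes of its difference from the mean of the 4 WT_Sham arrays, counted as positive in the direction seen in TG. The score was 0.414 on WT_IR replicate 1, 0.400 on replicate 3 and 0.241 on replicate 4, but 0.00249 on replicate 2. WT_Sham replicates 1 to 4 scored 0.0167, 0.00631, −0.0457 and 0.0227. Hence 3 I/R arrays lay far above the sham range and the fourth lay inside it. The mean was 0.265 ± 0.192 in WT_IR (SD, n = 4) and 0.352 ± 0.096 without replicate 2 (SD, n = 3), with an SD of 0.0312 in WT_Sham (n = 4). The choice of probes was made on other hearts, but with earlier results of these data known, and no test was made on the score.

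Rises and falls gave the same order of the 4 I/R arrays. Over the probes that rose in TG, replicates 1, 3 and 4 scored 0.462, 0.450 and 0.276, and over those that fell 0.367, 0.352 and 0.207. Replicate 2 scored 0.000836 and 0.0041.

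**Figure D3:**
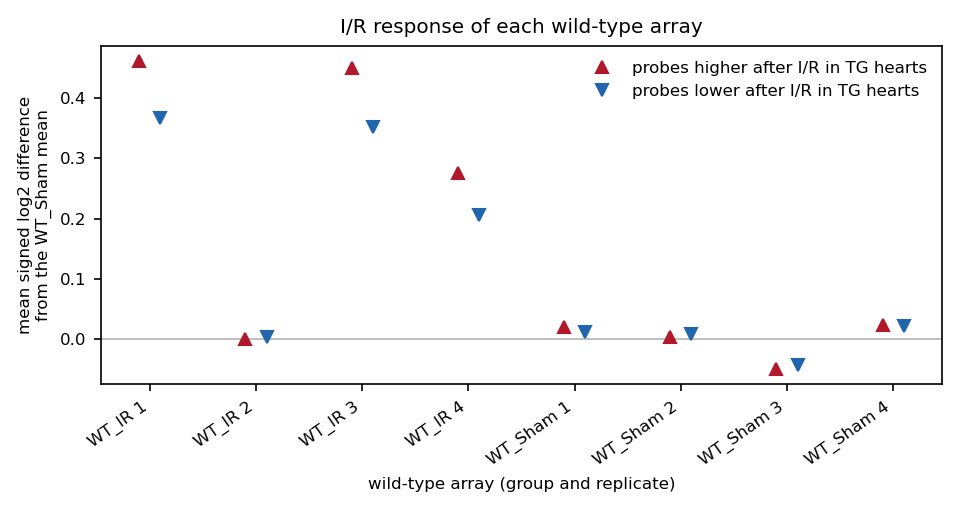
Response score of each wild-type array (x axis) over the 2079 probes higher after I/R in TG hearts (red, pointing up) and the 2124 lower (blue, pointing down); the y axis is the mean signed log2 difference from the WT_Sham mean. WT_IR replicates 1 and 3 stand at 0.352 to 0.462, replicate 4 at 0.207 to 0.276, and replicate 2 among the sham arrays.

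Individual probes gave the same picture. Of the 4203 probes, 97.9% and 98.3% differed from the sham mean in the TG direction on WT_IR replicates 1 and 3, and 94.6% on replicate 4, but 50.5% on replicate 2. On replicates 1, 3 and 4, respectively 92.3%, 92.7% and 79.5% lay beyond all 4 sham arrays in the TG direction, and 0.690%, 0.404% and 1.52% beyond them in the opposite direction. For replicate 2 these shares were 21.2% and 17.8%, close to each other. All of replicates 1, 3 and 4 lay beyond the sham arrays in the TG direction for 3173 of the 4203 (75.5%) and in the opposite direction for 2. With replicate 2 included, this held for 782 (18.6%). Over all 25697 probes, replicates 1, 3 and 4 lay beyond the sham arrays in either direction in 24.6%. For all 4 I/R arrays this share was 8.15%. Replicate 2 by itself lay above every sham array in 19.9% of all probes and below every one in 20.2%.

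Replicate 2 stayed low among the probes that changed most in TG. Among the 126 probes that rose more than 2-fold in TG, the scores were 1.71, 1.67 and 1.12 on WT_IR replicates 1, 3 and 4 and 0.00771 on replicate 2, with sham arrays from −0.190 to 0.125. Among the 23 that fell more than 2-fold in TG, they were 1.12, 1.15 and 0.657, and 0.0594 on replicate 2, with sham arrays from −0.0591 to 0.0416. In that last set replicate 2 was thus above every sham array, though far below the other I/R arrays. It lay beyond all sham arrays in the TG direction in 8 of the 23 and in the opposite direction in 2.

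WT_IR replicate 4 responded in the same direction as replicates 1 and 3 but less. Its score was 59.2% of their mean, at 60.5% for rises and 57.5% for falls. From bin 6 to bin 10 of intensity the ratio was 48.3%, 56.1%, 56.8%, 58.8% and 60.6%, and it was 66.7% for the probes that rose more than 2-fold in TG. The smaller response was therefore seen in rises and falls and in each of these bins. When each I/R array was regressed through the origin on the mean of the others, with separate sham arrays subtracted on each side, the slope without replicate 2 was 1.22 for replicate 1, 1.14 for replicate 3 and 0.596 for replicate 4. The correlations across probes were 0.951, 0.940 and 0.928. Replicate 2, set against the other 3, had a slope of 0.0197 and a correlation of 0.0769.

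**Figure D4:**
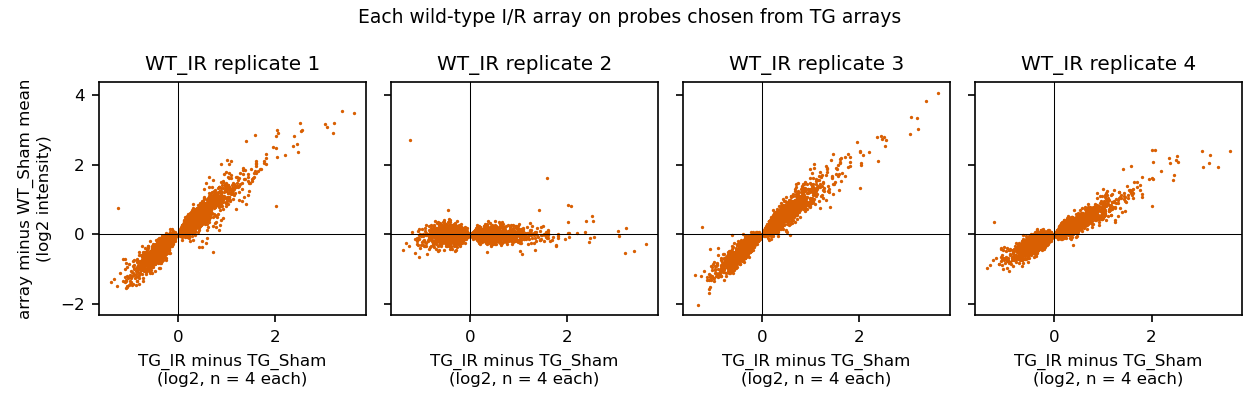
Each wild-type I/R array minus the WT_Sham mean (y axis, log2 intensity) against the TG_IR minus TG_Sham difference (x axis, log2, n = 4 arrays each), 1 point for each of the 4203 probes chosen from the TG arrays. Points rise along a slanted band for replicates 1, 3 and 4, with the flattest of these bands for replicate 4, and lie along 0 for replicate 2 apart from a few outlying points.

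Among the sham arrays, WT_Sham replicate 3 stood furthest from the I/R arrays. Set against the other 3 sham arrays, 28.2% of the 4203 probes differed in the TG direction on it, and 47.2% lay beyond those 3 arrays in the opposite direction. For the other sham arrays, 53.2% to 60.2% differed in the TG direction. In size this was small, with a score of −0.0610 against the other sham arrays.

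Most wild-type calls were also calls in transgenic hearts. Fitted on the wild-type arrays alone without replicate 2, 3935 probes were called, and 2673 of them were called in the same direction in the TG arrays fitted alone. That was 67.9% of the wild-type list and 63.6% of the TG list. Over all probes, 16.4% were called in TG in either direction. Both lists lay mostly in bright probes, and in bin 10 of mean intensity 1371 of 2570 probes were called in TG. How much of the overlap goes with brightness was not tested. Opposite calls were made for 1 probe. The difference of the responses, tested as an interaction in limma over all groups, gave 0 calls with all arrays and 0 without WT_IR replicate 2. At an unadjusted p under 0.05 there were 1101 and 1094 probes, and the smallest adjusted p was 0.888 and 0.509.

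By the array identifiers in the labels, the arrays lay on 2 slides, each with 2 arrays of every group. On slide 1, which carried WT_IR replicates 1 and 2, limma called 0 probes (1372 at an unadjusted p under 0.05). Without replicate 2 slide 1 gave 2114, where the lone I/R array is assumed to vary like the other groups. Slide 2, with replicates 3 and 4, gave 1445 calls, 711 higher and 734 lower, with a median absolute difference of 0.41 log2. These 1445 probes were then read on slide 1, whose arrays had not chosen them. WT_IR replicate 1 differed from the 2 sham arrays of slide 1 in the slide 2 direction for 99.0% of them, with a median of 0.45 log2. Replicate 2 did so for 52.9%, with a median of 0.0076 log2. The response seen on slide 2 was thus present at full size on 1 I/R array of slide 1 and near 0 on the other.

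Among calls whose I/R and sham arrays did not overlap, the largest rises with all arrays were those of ILMN_2713285 and ILMN_3117381. ILMN_2713285 stood at 10.73, 10.57, 10.29 and 10.45 on WT_Sham replicates 1 to 4, and at 13.33, 11.35, 12.90 and 12.94 on WT_IR replicates 1 to 4. All I/R arrays were above all sham arrays, and replicate 2 was the lowest of them. The rise was 4.35-fold with all arrays (log2 difference 2.12, SE 0.32, limma adjusted p = 0.0235). Without replicate 2 it was 5.85-fold (2.55, SE 0.16, limma adjusted p = 6.96e-06). ILMN_3117381 differed from it by at most 0.16 log2 on any wild-type array, and rose 4.32-fold with all arrays (SE 0.33 log2, limma adjusted p = 0.0241). Whether these probes detect the same transcript is not known here.

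By the same rule, the largest falls were those of ILMN_1241151 and ILMN_2593694, in both fits. ILMN_1241151 stood at 10.60, 10.66, 10.41 and 10.59 on WT_Sham replicates 1 to 4, and at 8.26, 9.61, 8.59 and 8.96 on WT_IR replicates 1 to 4. The groups did not overlap, and replicate 2 lay about midway, at 48.6% of the change of the other 3. The log2 difference was −1.71 with all arrays (SE 0.35, limma adjusted p = 0.0338) and −1.96 without replicate 2 (SE 0.35, limma adjusted p = 0.0016). ILMN_2593694 stood at 9.58 to 9.66 on the sham arrays, at 7.92, 8.11 and 8.35 on WT_IR replicates 1, 3 and 4, and at 8.80 on replicate 2. Its log2 difference was −1.32 (SE 0.25, limma adjusted p = 0.0308) and −1.49 (SE 0.25, limma adjusted p = 0.00138). In the TG arrays fitted alone, both differences had the same sign but were not called, at −0.93 log2 (limma adjusted p = 0.173) and −0.64 log2 (limma adjusted p = 0.219). The interaction with genotype was not called for either (limma adjusted p = 0.998 with all arrays). Of the 30 probes that fell more than 2-fold without replicate 2, 28 were called as lower in TG. Over all 25697 probes, 2124 were called as lower in TG. All 30 were in the brightest bin by sham mean, and TG calls too lay mostly in bright probes.

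By that rule, the largest rises without replicate 2 were those of ILMN_2710905 and ILMN_2952275, and neither was called with all arrays. ILMN_2710905 stood at 9.50, 9.24, 8.68 and 9.40 on WT_Sham replicates 1 to 4, and at 12.68, 8.93, 13.27 and 11.59 on WT_IR replicates 1 to 4. Replicate 2 lay inside the sham range, more than 2 log2 below the next I/R array. The rise was 9.90-fold without it (log2 difference 3.31, SE 0.40, limma adjusted p = 0.000162) and the log2 difference was 2.41 with it (SE 0.70, limma adjusted p = 0.0609). ILMN_2952275 stood at 9.27, 8.02, 7.96 and 8.97 on the sham arrays and at 12.11, 8.08, 12.39 and 10.48 on the I/R arrays. It rose 8.63-fold without replicate 2 (SE 0.42 log2, limma adjusted p = 0.000347), and with all arrays its log2 difference was 2.21 (SE 0.71, limma adjusted p = 0.0812). Here too replicate 2 was within the sham range and replicate 4 was the lowest of the remaining I/R arrays.

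**Figure D5:**
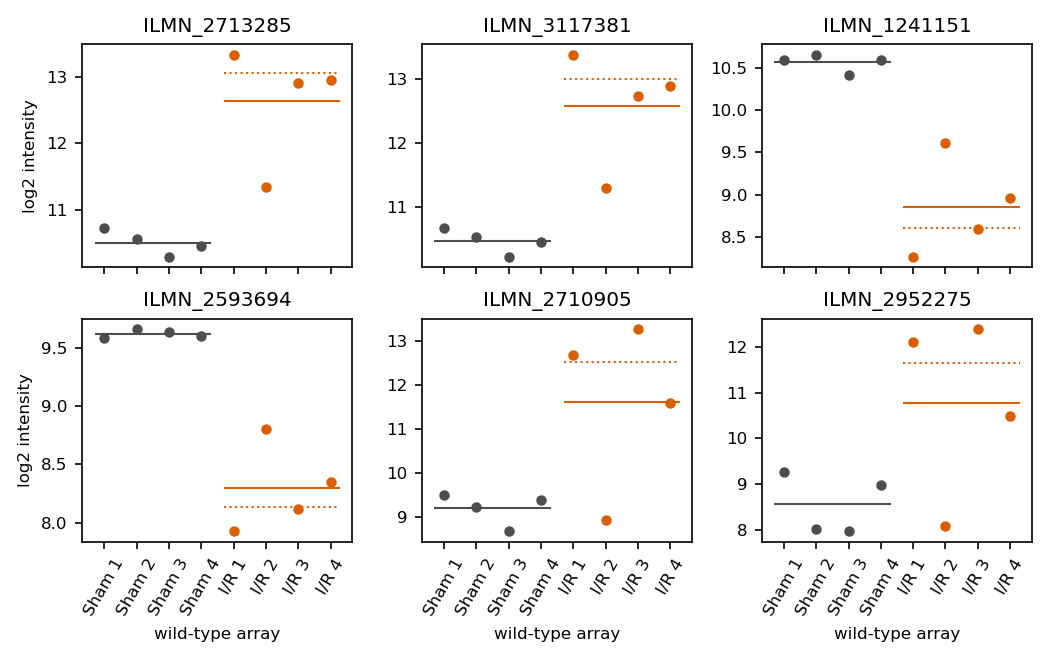
Log2 intensity (y axis, its own range in each panel) of the 6 named probes on each wild-type array (x axis), with sham in grey and I/R in orange. Solid lines are group means (n = 4) and dotted lines the I/R mean without replicate 2 (n = 3); replicate 2 lies between sham and the other I/R arrays in the first 4 panels and within the sham range in the last 2.

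Probes called with all arrays were mostly ones in which replicate 2 stood apart from sham too. In 732 of the 983 probes called with all arrays (74.5%), it lay beyond all 4 sham arrays on the side of the change, in 250 within their range and in 1 on the other side. Its median position in these probes was 33.7% of the change of the other 3 I/R arrays, against −1.62% in the 3610 probes called only without it. Of the 4593 probes called without it, it lay beyond all sham arrays on the side of the change in 1333 (29.0%). It lay beyond them on the other side in 649 (14.1%). The sham arrays took part in choosing these probes. Over all 25697 probes, replicate 2 lay above every sham array in 19.9% and below every one in 20.2%. The array itself took part in choosing the 983, so that these shares describe the list. Among the probes that rose more than 2-fold without replicate 2, 58 of 147 were called with all arrays. Among those that fell more than 2-fold, 16 of 30 were. Of all 4593 calls without replicate 2, 983 were (21.4%), and of all 25697 probes 3.83%. Mostly the same arrays chose these lists, so that the shares describe the lists only.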

How the data were processed

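RNA of 16 hearts was measured, 1 Illumina array per mouse. Per the labels' protocols, TriReagent was used for extraction and an Illumina TotalPrep kit for biotinylated cRNA. The deposited values are linear probe intensities, already equalised between arrays: sorted values differed by a median of 0.109% and at most 7.71%. Which software, background correction or normalization the authors used is not given here. No 2 arrays were identical (0 pairs).

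Intensities were log2 transformed, with no further step. limma 3.58.1 (R 4.3.3; lmFit and eBayes) was fitted with 4 group means to all 16 arrays, then to 15, with Benjamini-Hochberg adjustment over 25697 probes. Having 4 arrays per group limits the precision. The fit was tested on simulated data. Named are the 2 probes per direction and fit with the largest difference among calls whose groups do not overlap; the planned rule for gene names, the gene lists and Akip1 could not be applied. Members, lists and tests were chosen with earlier results of these data known. Plots were made with matplotlib 3.10.9. Alternatives were background correction, normalization, a filter on dim probes, slide, samples in the fit, array weights, spread and left-out arrays.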

Additional observations from a re-analysis of the deposited data

How the results depend on the processing

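With all arrays, 983 probes were called. The count was 2388 among probes brighter than the median, 1865 after normexp background correction, 1610 with an intensity trend and robust estimation of the spread together, 3560 with array weights (0.38 for WT_IR replicate 2), 468 with slide as a block (143 higher and 325 lower), 0 on slide 1 alone and 9 with the wild-type arrays alone. The filter tests fewer probes; otherwise the cause was not tested. Without WT_IR replicate 2, 4593 were called, with 2114 on slide 1 and 1445 on slide 2, each with fewer arrays. The alternatives of normalization kept both counts within 1.5 times. Leaving out 1 array gave 3 to 4593 and 3064 to 4763. Bins 6 to 10 held 96.4% and 94.3% of calls when ranked by sham arrays. With 1 wild-type array left out they held 97.0% to 100% and 97.0% to 98.3%. The values of 100% rest on only 3 to 77 calls each. The score difference and the slopes stayed within 1 SD of the I/R arrays, a wide margin because replicate 2 enters that SD. The score difference was 0.265, and ran from 0.215 to 0.377 over the alternatives. With 1 array left out, the slopes ran from 1.22 to 2.42 for WT_IR replicate 1. They ran from 1.14 to 2.21 for replicate 3 and from 0.596 to 1.11 for replicate 4. The slope of WT_IR replicate 2, at 0.0197 and up to 0.0385 with 1 array left out, turned to −0.0173 without WT_Sham replicate 3. Counted over each named probe, fit and alternative, there were 306 comparisons, of which 35 lost a call and 8 gained one. Direction was kept in all, but this says little. Many alternatives, such as leaving out a TG array, cannot alter the wild-type difference. The probes had also been chosen for large differences without overlap. The means of probes per gene were not run. No paired analysis was possible because replicate numbers here follow accession order and pair no mice.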

Other observations

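Over all probes, WT_IR replicate 2 had few values far from the sham arrays. It lay more than 2-fold above every sham array in 3 probes and more than 2-fold below every one in 0, against 164 and 41 on replicate 1, 145 and 26 on replicate 3, and 41 and 2 on replicate 4. Each sham array, set against the other 3, had at most 1 such probe above and 2 below. The 3 probes are named here because they are few, after their values were seen.

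ILMN_2759365 was called as higher in both fits (limma adjusted p = 0.0179 and 0.000228). It stood at 9.87 log2 on replicate 2, at 9.99 to 11.09 on the other WT_IR arrays and at 8.13 to 8.47 in WT_Sham, so that this probe rose on all 4 I/R arrays. ILMN_2729762 was called in neither fit. It stood at 10.70 on replicate 2, at 8.18 to 8.75 on the other WT_IR arrays and at 7.74 to 8.25 in WT_Sham, whereas TG arrays stood at 11.21 to 12.89. ILMN_2594926, also not called, stood at 9.40 on replicate 2 and at 7.44 to 8.02 on the other wild-type arrays. On TG arrays it stood at 11.13, 10.99 and 10.02 on TG_Sham replicates 1 and 2 and TG_IR replicate 2, which share slide 1 with WT_IR replicate 2, and at 7.43 to 8.11 on the remaining 5, with TG_IR replicate 1, also on slide 1, at 7.43.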
